A study of Mus musculus with 34 samples.

Results

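Genes of DNA replication and S phase were followed in cultures of MOSJ-Dkk1, a mouse osteosarcoma line, in log-phase growth and in nutritional stress. The members were chosen by name from the replication machinery and its regulators, and 39 of the 40 genes named were among the 16562 genes tested, while Pcna was not analysed here. By role, 9 genes serve origin licensing, 5 origin firing, 4 the replicative polymerases, 5 the clamp loader and Okazaki fragment processing, 4 nucleotide synthesis, 4 the G1/S transition, 4 chromatin assembly and 4 repair. All the cultures carried a lentiviral cassette from which the CMV promoter drives constitutive secretion of human Dkk-1, an antagonist of Wnt signalling. Cells were left without morpholino (NT, with the treatment label vehicle), given 5 µM of a vivo morpholino against Dkk-1 (DkkMo), or given 5 µM of a mismatched control morpholino (scrMo). The dose follows the study's detailed methods, while a figure legend of the study gives a higher one for DkkMo in log phase. A vivo morpholino is an antisense oligomer joined to a dendrimeric group that helps it enter cells, and it blocks translation or splicing of its target RNA. The log-phase cultures were seeded sparsely and refed. The nutritional stress cultures met 48 h of confluence with the medium left unchanged for 4 days. Confluence, spent medium and any difference in culture age or length of morpholino exposure therefore cannot be told apart. Each of the 6 groups had 3 libraries.

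Replication starts with licensing, in which the origin recognition complex with Cdc6 and Cdt1 loads the Mcm2-7 ring onto DNA in G1. At the G1/S transition, cyclin E with its kinase and the E2F transcription factors turn on a programme of replication genes, and Cdc45 and the GINS complex then join Mcm2-7 to make the active helicase. Polymerases alpha, delta and epsilon copy the strands, the clamp loader and Okazaki enzymes complete the lagging strand, and ribonucleotide reductase, thymidylate synthase and thymidine kinase supply deoxynucleotides. In tumours and growing tissue these transcripts are widely used as a sign of proliferation.

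RefSeq (GRCm38.p6) promoters were matched for 33 of the 39 genes, 38 promoters in all, and the 250 bases before each start site were searched on both strands for 4 words of the E2F site, TTTGGCGC, TTTCCCGC, TTTCGCGC and TTTGCCGC. At least 1 word lay in a promoter of 10 of the 33 genes (30.3%), against 3.63% of the 10531 culture genes with a matched promoter and 2.16% of all 27025 genes with one. Counted by promoter, the shares were 26.3% of 38 and 1.86% of all 32851. The 10 genes were Brca2, Cdc6, Gins3, Mcm5, Mcm6, Mcm7, Orc1, Pola1, Rfc3 and Uhrf1, with 5 of the 8 licensing genes matched and 0 of the 4 nucleotide synthesis genes. On either strand, a CCAAT word lay in a promoter of 19 of the 33 genes (57.6%, against 40.7% of the culture genes) and the word TTTGAA, a form of the cell-cycle homology region, in 5 (15.2%, against 13.1%). Of 17 mitosis genes with a promoter, which served as a comparison, 1 held an E2F word (5.88%), 14 CCAAT (82.4%) and 7 TTTGAA (41.2%). The first base of the word, or of the pair where 2 overlap, lay 153 bases before the start in Mcm5, 185 in Uhrf1, 168 in Brca2 and 138 in Cdc6. A match is a string of letters, not a measured binding site. The 200 bases before the start are shown for 4 genes with E2F words and 2 without, since all 6 fell in each of the 3 stress comparisons given below. Each reads 5′ to 3′ on the gene's strand, and capitals mark the E2F words on either strand, which run together where they overlap (Mcm5 at chr8:75109309-75109508, plus strand, Mcm6 at chr1:128359706-128359905, minus, Uhrf1 at chr17:56304113-56304312, plus, before a RefSeq start that lies inside the annotated gene, Brca2 at chr5:150522421-150522620, plus, Mcm3 at chr1:20820313-20820512, minus, and Rrm1 at chr7:102441495-102441694, plus).
Mcm5: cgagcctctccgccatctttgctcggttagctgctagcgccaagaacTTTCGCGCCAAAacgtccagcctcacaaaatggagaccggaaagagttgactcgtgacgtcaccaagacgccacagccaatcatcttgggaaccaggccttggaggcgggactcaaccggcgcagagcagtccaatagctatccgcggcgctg
Mcm6: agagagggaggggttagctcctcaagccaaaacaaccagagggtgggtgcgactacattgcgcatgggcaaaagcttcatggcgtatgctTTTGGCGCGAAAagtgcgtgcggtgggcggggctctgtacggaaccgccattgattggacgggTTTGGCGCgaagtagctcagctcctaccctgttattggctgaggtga
Uhrf1: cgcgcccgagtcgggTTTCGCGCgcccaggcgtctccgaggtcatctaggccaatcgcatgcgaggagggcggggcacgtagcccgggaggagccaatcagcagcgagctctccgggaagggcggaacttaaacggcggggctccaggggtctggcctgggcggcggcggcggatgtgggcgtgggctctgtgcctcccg
Brca2: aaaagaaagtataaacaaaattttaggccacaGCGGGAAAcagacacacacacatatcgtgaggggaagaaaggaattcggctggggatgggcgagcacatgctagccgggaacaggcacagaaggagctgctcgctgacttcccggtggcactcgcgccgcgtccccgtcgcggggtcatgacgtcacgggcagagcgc
Mcm3: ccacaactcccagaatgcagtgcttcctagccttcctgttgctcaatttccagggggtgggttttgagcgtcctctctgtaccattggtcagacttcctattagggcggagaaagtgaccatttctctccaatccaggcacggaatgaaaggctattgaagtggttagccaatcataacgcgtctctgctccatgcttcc
Rrm1: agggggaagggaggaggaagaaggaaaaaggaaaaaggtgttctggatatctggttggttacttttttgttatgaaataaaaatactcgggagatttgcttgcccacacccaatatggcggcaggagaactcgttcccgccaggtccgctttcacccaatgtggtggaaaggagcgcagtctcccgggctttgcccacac

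Reads assigned to genes ranged from 25875666 to 44779668 per library. Values below are normalised read counts, recovered from the variance-stabilised log2 values that were deposited. Unless stated, each log2 difference is on that stabilised scale, which compresses changes of weakly expressed genes. A gene is called changed where limma's adjusted p, over all 16562 genes, was below 0.05, and a fold threshold of 1.5 is named where used. That threshold is on the stabilised scale unless counts are named, whereas each ratio, fold or percentage given for a gene is of mean normalised counts, so genes beyond 1.5-fold in counts can miss it. The study's methods give n = 3 a group, in flasks, but do not say whether each library came from its own flask, so p-values measure only the spread between these libraries, which may be technical. Exact permutation tests of 3 against 3 libraries cannot give a p below 0.1. Of the markers of the line, Col1a1 ranged from 1475 to 32561 normalised counts over the 18 libraries. Runx2 ranged from 1736 to 5718 and Sox9 from 4523 to 9248, while Sp7 and Ibsp were not listed. Alpl, another marker of the line, was low throughout, at 7.02 to 24.4. Ptprc, of blood cells, stayed between 1.04 and 20.3 and Krt8, of epithelium, between 1.11 and 22.8, whereas Cd68 (391 to 1551) and Pecam1 (269 to 426) were present.

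In log phase, 2 libraries stood apart. The mean of the 39 genes, each centred on its own mean over the 18 libraries, was 0.41, 0.61 and 0.58 log2 units in the NT libraries, 0.59, 0.78 and 0.61 with DkkMo, and 0.36, 0.29 and 0.30 with scrMo. NT library 1 was the lowest of its group for 37 of the 39 genes, and DkkMo library 2 was the highest of its group for 35. Under stress the groups were closer together, at -0.47 ± 0.016 (SD, n = 3) for NT, -0.52 ± 0.0093 for DkkMo and -0.53 ± 0.014 for scrMo. Every log-phase library lay above every stress library on this scale.

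**Figure D1:**
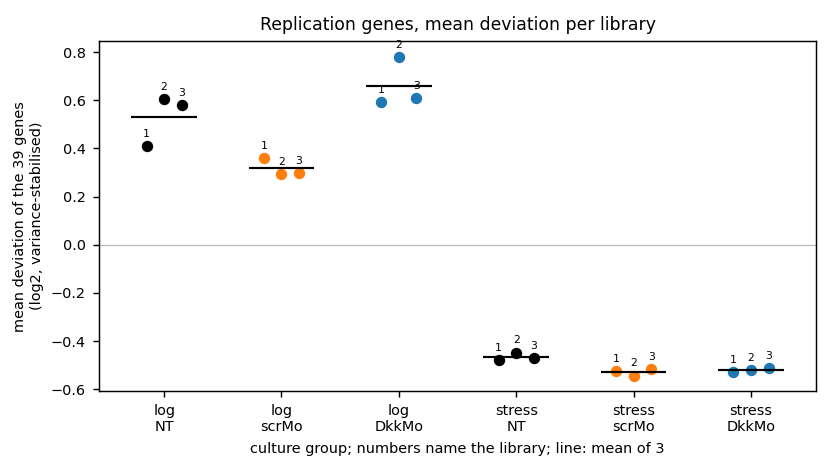
Mean level of the 39 replication and S-phase genes in each of the 18 libraries, as log2 units centred on each gene's mean. Points are libraries grouped by growth condition and treatment, and the log-phase groups lie from 0.29 to 0.78, above all the stress libraries.

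**Figure D2:**
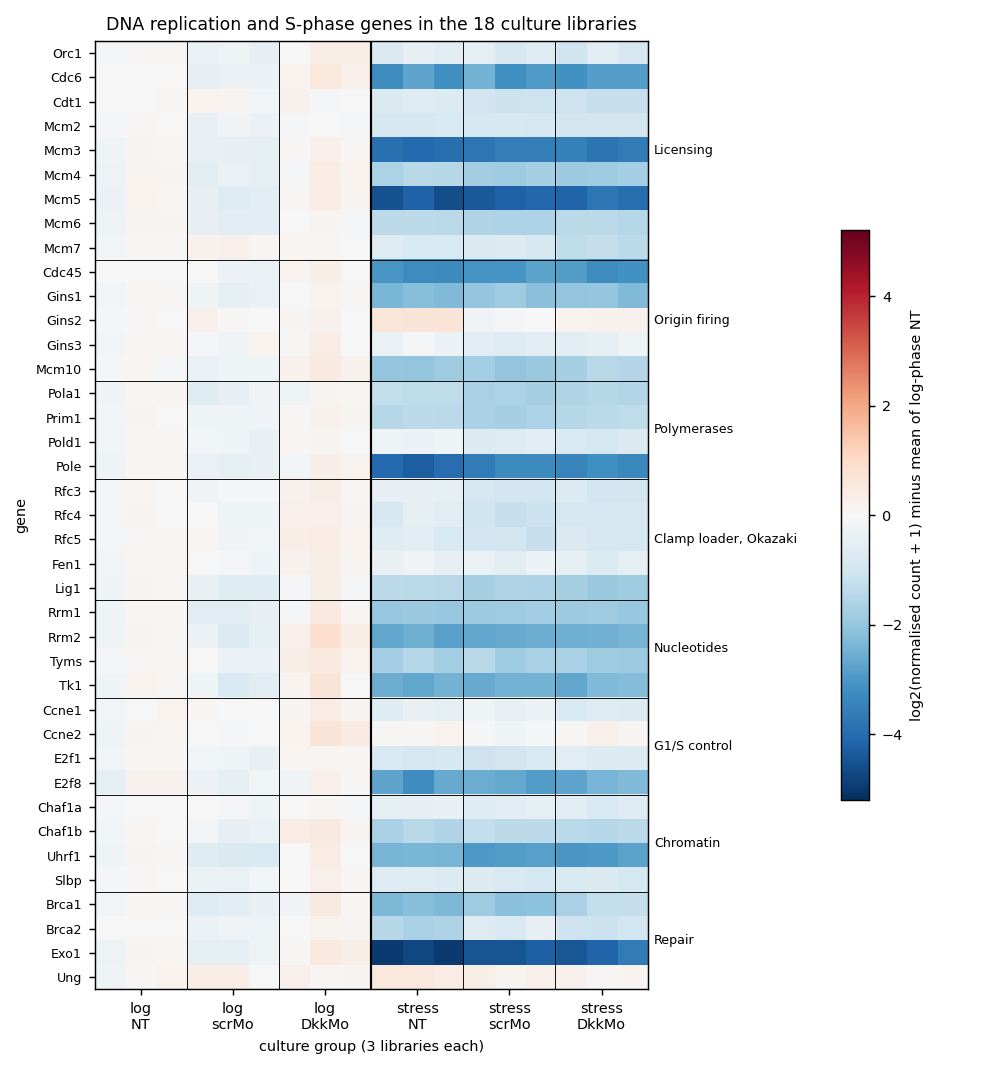
Level of each of the 39 genes, grouped by role, in each library. Values are log2 normalised counts with a pseudocount, not on the stabilised scale, relative to the gene's mean over the log-phase NT libraries. The stress columns are lower for most genes, and Gins2 and Ung stand out as exceptions in the NT columns.

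The first question was how these genes differed between nutritional stress and log-phase growth. Without morpholino, 35 of the 39 genes fell and 2 rose, where 34.1% of all genes tested fell and 31.5% rose. Of these, 26 fell by over 1.5-fold, against 9.90% of all genes, and by normalised counts 29 did, against 20.9%. The median change was -1.02 log2 units (all genes, -0.01), a median ratio of normalised counts of 0.377. With scrMo 36 fell and 0 rose (30.8% and 28.0% of all genes), 24 of them over 1.5-fold (6.28%) and 27 by normalised counts (13.5%), with a median of -0.85. With DkkMo 37 fell and 0 rose (35.2% and 30.4%), 33 of them over 1.5-fold (10.2%) and 36 by normalised counts (19.5%), with a median of -1.10. The 3 comparisons use separate libraries, and 34 genes fell in each. Bulk RNA cannot tell fewer cells in S phase from less RNA per cell. When each library was centred on its median gene, the middle of all genes moved by over 0.1 (to 0.14 in NT and 0.15 with DkkMo) and the shares of all genes that rose and fell became 50.9% and 21.6% in NT, 36.6% and 24.3% with scrMo, and 51.9% and 22.2% with DkkMo, while the members that fell numbered 32, 34 and 35.

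**Figure D3:**
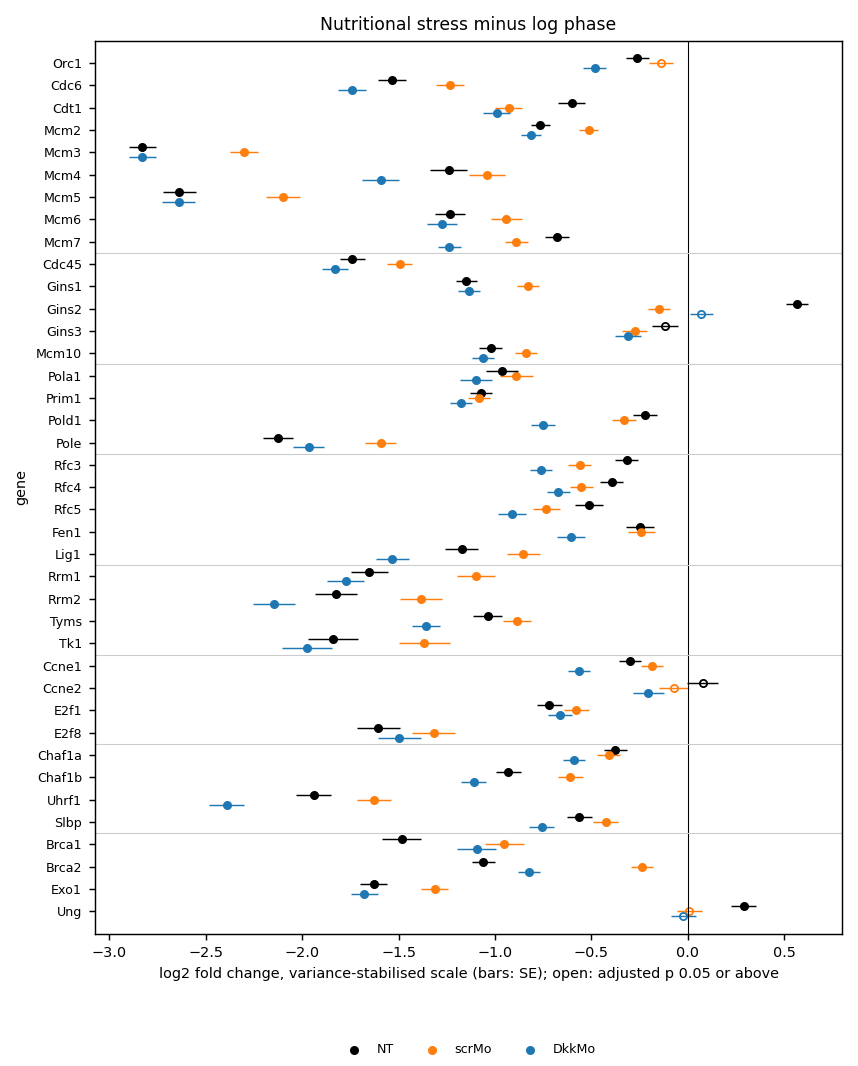
Change of each of the 39 genes from log phase to nutritional stress in NT, scrMo and DkkMo cultures, as the log2 difference on the stabilised scale with its standard error. Most points lie below 0, with Mcm3 and Mcm5 among the lowest in each treatment, and Gins2 and Ung are above 0 in NT.

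Among the licensing genes all 9 fell in NT, with a median of -1.23 log2 units. Mcm3, a subunit of the helicase ring (chr1, 20802968 to 20820312, minus strand, GRCm38), held 2280, 2961 and 2774 normalised counts in the log-phase NT libraries and 182, 161 and 176 under stress. The groups were far apart, a 15.4-fold lower level and a log2 difference of -2.83 (SE 0.0716, limma adjusted p = 1.63e-15). With scrMo the difference was -2.30 (adjusted p = 6.54e-14) and with DkkMo -2.83 (adjusted p = 3.06e-15). Mcm5, of the same ring, stood at 1230, 1702 and 1610 against 64.6, 79.8 and 60.7, so that it was 22.1-fold lower in NT (-2.64, SE 0.0865, adjusted p = 1.7e-14). Other subunits of the ring fell less in NT. Mcm2 held 3892, 4288 and 4029 against 2248, 2250 and 2338, and Mcm7 3565, 4281 and 4127 against 2528, 2302 and 2322. Stress libraries were thus lower for every subunit without overlap, but by unequal amounts. The loading factor Cdc6 fell from 553, 566 and 537 to 56.8, 80.9 and 59.7, while Cdt1, the other loading factor, went from 1786, 1791 and 1879 to 1066, 1132 and 1121. Mcm4 had 1628, 2158 and 2191 in log phase and 629, 726 and 706 under stress, and Mcm6 3252, 4269 and 4319 and 1507, 1533 and 1480.3. Orc1, of the origin recognition complex, fell in NT, from 174, 195 and 198 to 112, 140.0 and 129.9, and with DkkMo, but was not called with scrMo, where it had 148, 155 and 141 and 132, 104 and 119. The low levels of Mcm3 and Mcm5 were seen in every treated group. Mcm3 stood at 195, 217 and 219 under stress with scrMo and 229, 191 and 215 with DkkMo, and Mcm5 at 72.6, 79.7 and 86.5 and 82.2, 111 and 97.8, all slightly above the NT means but far below log phase.

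Of the 5 genes of origin firing, Cdc45, which completes the helicase, was 9.29-fold lower in NT under stress (-1.74), at 88.2, 74.7 and 73.0 against 717, 743 and 733. Mcm10 and Gins1 also fell, to 107, 104 and 119 from 409, 465 and 413, and to 80.4, 91.3 and 85.3 from 385, 449 and 441. Gins2 went the other way in NT. It had 1215, 1350 and 1307 in log phase and 1972, 2078 and 2078 under stress, an increase of 58.2% (0.57, SE 0.0572, adjusted p = 4.58e-08), whereas with scrMo it fell and with DkkMo the difference was 0.07 and not called. Exons of Gins2 (chr8, 120578633 to 120589304, minus strand) overlap those of Gse1 on the opposite strand over 67.3% of their length. The strand setting of the counting is not given in the sources used here, so it is not known whether reads of the pair were kept apart. Gse1 itself rose by 1.00 in NT (limma adjusted p = 7.32e-12), from a mean of 1645 to 3578. Gins3 was not called in NT (-0.12), at 172, 214 and 176 against 199.8, 226 and 235 with overlap, while Gins1, a partner in the same complex, fell.

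The 4 polymerase genes all fell in NT with a median of -1.02. Pole, the catalytic subunit of the leading-strand polymerase, had 742, 924 and 915 in log phase and 50.7, 42.5 and 54.1 under stress, a 17.5-fold lower level (-2.12, SE 0.0791, adjusted p = 6.37e-14). Pold1, the catalytic subunit of polymerase delta, went only from 1572, 1876 and 1817 to 1461, 1426 and 1501. Pola1 and Prim1, of the primase complex, lay between these, at 471, 454 and 449 and at 471, 512 and 491 under stress. The clamp loader and Okazaki genes showed the smallest median of the 8 roles in NT, at -0.39, although all 5 fell. Lig1, which seals Okazaki fragments, was 2.65-fold lower (-1.17), at 886, 846 and 831 against 1975, 2484 and 2343. Of the clamp loader subunits, Rfc3 had 517, 529 and 498 against 659, 748 and 699.8, Rfc4 243, 307 and 294 against 410.2, 481 and 427 and Rfc5 788, 842 and 715 against 1141, 1262 and 1269.6, with no overlap in any of them. Fen1, the flap endonuclease, had 721, 842 and 711 against 857, 1011 and 973, and 84.2% of its exon length overlaps genes on the opposite strand. Gm10143, the opposite-strand gene with most of that overlap, had NT means of 754 under stress and 909 in log phase. The means of Fen1 were close to these, at 758 and 947, and whether the same reads were counted for both was not tested.

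Nucleotide synthesis had the lowest median of the roles in NT, -1.74, and all 4 of its genes fell in every treatment. Rrm2, the regulated subunit of ribonucleotide reductase (chr12, 24708241 to 24714146, plus strand), fell 6.42-fold (-1.83), from 1144, 1482 and 1374 to 205, 230 and 188. Its partner Rrm1 stood at 741, 753 and 742 against 2516, 3161 and 3101. Thymidine kinase, Tk1, fell 6.01-fold (-1.84), from 1308, 1729 and 1615 to 259, 234 and 280, and thymidylate synthase, Tyms, went from 618, 692 and 701 to 198, 239.5 and 197. Each of these 4 genes kept a smaller share of its log-phase level than the median member. Among the G1/S regulators, E2f8, an atypical E2F that represses the programme, was 7.40-fold lower (-1.61), with 106, 74.7 and 117 against 518, 836 and 843. The activator E2f1 fell from 2112, 2457 and 2421 to 1349, 1275 and 1297. The 2 cyclin E genes differed in their calls. Ccne1 held 238, 278 and 260 under stress against 337, 358 and 412, and was called, while Ccne2 held 593, 595 and 644 against 484, 617 and 607 (0.08, not called), and 17.4% of its exon length overlaps Ints8 on the opposite strand.

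Uhrf1, which brings the maintenance DNA methyltransferase to new DNA, led the chromatin genes. It was 5.30-fold lower in NT (-1.94), at 508, 523 and 499 against 2310, 2976 and 2828, 4.53-fold lower with scrMo (-1.63, SE 0.0904, adjusted p = 3.18e-11) and 8.35-fold lower with DkkMo (-2.39, adjusted p = 1.52e-13). Chaf1a, of the histone chaperone CAF-1, changed less, from 2657, 2820 and 2796 to 2021, 2079 and 2082, and its exons overlap Ubxn6 on the other strand over 52.5% of their length. Chaf1b, its partner in CAF-1, went from 489, 594 and 561 to 171, 198 and 182, and Slbp, which binds histone mRNA, from 1382, 1557 and 1501 to 918, 919.8 and 906. Of the repair genes, the nuclease gene Exo1 had 279, 367 and 359 in log phase and 9.61, 11.4 and 9.48 under stress, a 32.9-fold lower level (-1.63), with as few as 10 reads in a library. Brca2, which acts in homologous recombination, went from 835, 841 and 830 to 300.4, 262 and 274, and Brca1 from 845, 999.7 and 979 to 183, 204 and 183. Ung, the uracil glycosylase (chr5, 114130386 to 114139323, plus strand), rose by 40.0% in NT (0.29, SE 0.0647, adjusted p = 0.000611), with 395, 388 and 348 against 231, 276 and 301, and was not called in the other 2 treatments. Exo1, Pole, Mcm5 and Mcm3 therefore lost the largest share of their counts in NT, and of the 35 genes that fell Pold1, Fen1, Chaf1a and Rfc3 lost the smallest.

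Under the same comparison 20 mitosis genes, a later phase of the cycle, all fell, with a median of -1.92 in NT, -1.46 with scrMo and -1.88 with DkkMo. Top2a, the topoisomerase that untangles chromosomes, changed by -4.04 log2 units in NT and Mki67, a proliferation marker, by -3.88. Other replication genes that were not members moved less as a list. Of 37, 23 fell and 6 rose in NT (median -0.39), and 29 fell and 2 rose with both scrMo and DkkMo. Timeless, of the fork protection complex, fell by 2.14 to a mean of 138 from 1376, and Clspn, a mediator of the replication checkpoint, changed by -1.61. Of 24 other repair genes 14 fell and 6 rose in NT, with Fancd2 (-1.63) among those that fell, and of 13 other chromatin genes 9 fell and 2 rose, with Mms22l (-1.69) among those that fell. Genes of the cyclin, Rb and E2F network moved both ways, with 8 of 20 up and 8 down (median 0.04), although Ccna2 (-1.81), E2f7 (-1.67) and Ccnd1 (-1.30) fell. Of 4 Cdk inhibitors 0 rose in NT and 1, Cdkn2c, fell (-0.93). The collagen genes Col1a1 (-3.20) and Col1a2 (-3.74) fell and Cd68, a lysosomal protein of macrophages and stromal cells, rose (1.37) in the same comparison, and their part in the result was not tested.

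The morpholino comparison asked how these genes differed between DkkMo and the mismatched control. In log phase, 31 of the 39 were higher with DkkMo than with scrMo and 0 lower, where 14.3% of all genes were higher and 9.20% lower. The median difference was 0.31 log2 units (all genes, 0.00), a median ratio of 1.32, and 5 genes passed 1.5-fold on the stabilised scale, against 1.66% of all genes, and 12 by normalised counts, against 5.47%. Centring on the median gene turned the split of all genes to 9.47% higher and 20.4% lower, and quantile normalisation to 11.8% and 12.6%, while the members stood at 31 higher and 1 lower, and at 31 and 0. Without DkkMo library 2 the count was 29 higher. The genes not called were Cdt1, Mcm7, Gins2, Gins3, Ccne1, E2f8, Chaf1a and Ung. In its own cell counts, with scrMo as the control, the study reported slower proliferation of this line with DkkMo. The RNA values here do not measure cell number.

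**Figure D4:**
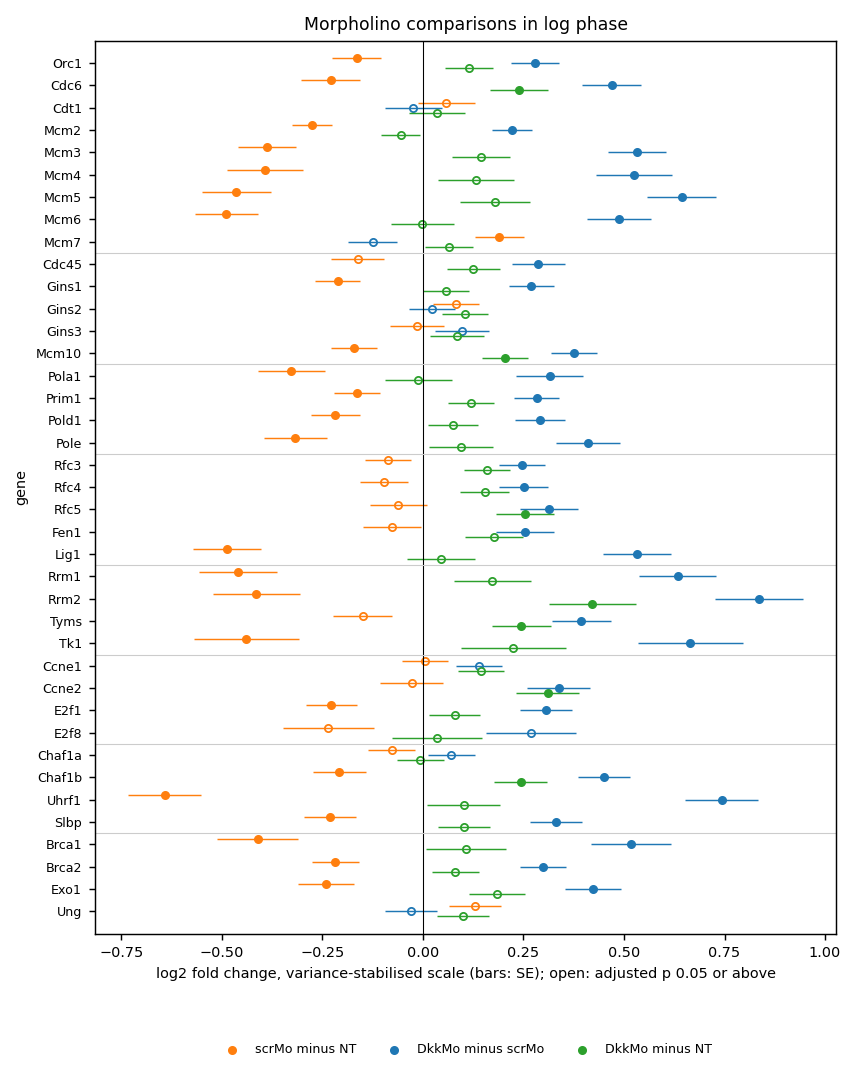
Differences between treatments in log phase for each of the 39 genes, as log2 differences on the stabilised scale with standard errors. DkkMo against scrMo lies above 0 for nearly all genes, scrMo against NT mostly below 0, and DkkMo against NT near or just above 0.

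Nucleotide synthesis showed the largest role median, 0.65. Rrm2 had 1587, 2449 and 1669 with DkkMo and 1059, 810.0 and 936 with scrMo, so it was 103% higher (0.84, SE 0.109, adjusted p = 2.68e-05), with no overlap of the groups. Tk1 was 74.6% higher (0.66, SE 0.13, adjusted p = 0.00103), at 1695, 2454 and 1503 against 1324, 889 and 1024. Uhrf1 was 80.3% higher (0.74, SE 0.0904, adjusted p = 1.32e-05), at 2615, 3539 and 2647 against 1735, 1593 and 1553. For all 3 genes DkkMo library 2 was the highest of its group. The licensing genes had a median of 0.47. Mcm5 was 71.3% higher (0.64), at 1624, 1968 and 1635 against 1103, 951 and 999, while Mcm7 stood at 4255, 4195 and 4081 against 4656, 4813 and 4285. All 3 DkkMo libraries were thus below all 3 scrMo libraries for Mcm7, against the direction of the other licensing genes that were called, and the difference was not called (-0.12, limma adjusted p = 0.149). The subunit Mcm3 stood at 2797, 3234 and 2885 against 2027, 1977 and 1895, and the loading factor Cdc6 at 623, 808 and 666 against 409, 451 and 449, each without overlap. Smaller differences were called for Lig1 (0.53), for Brca1 (0.52), which acts in homologous recombination, for Pole (0.41), for Mcm10 (0.38) and for Ccne2 (0.34). Brca1 had 828, 1291 and 1017 with DkkMo and 584, 638 and 715 with scrMo, Pole 774, 1075 and 969 and 666, 597 and 655, Lig1 2156, 2750.0 and 2152 and 1714, 1461 and 1435, and Mcm10 501, 594 and 497 and 341, 362 and 362, again without overlap. Ccne2, a cyclin E, held 638, 912 and 756 with DkkMo and 559.6, 537 and 558 with scrMo. Of the 20 mitosis genes all 20 were higher too (median 0.65), Mki67 (1.01) and Top2a (0.80) among them, as were the collagen genes Col1a1 (1.29) and Col1a2 (1.00), and their part in the result was not tested. Of the 37 other replication genes, 19 were higher and 1 lower (median 0.19), with Clspn (0.49) and Cdc7 (0.43), the kinase that starts firing, among them.

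The 2 morpholinos were also set against NT, which shares its libraries between both comparisons. With scrMo in log phase 24 genes were lower than in NT and 1 higher (14.6% and 11.8% of all genes), with a median of -0.22 and 1 gene, Uhrf1, past 1.5-fold on the stabilised scale (1.85% of all genes). Uhrf1 stood at 1735, 1593 and 1553 with scrMo and 2310, 2976 and 2828 in NT (-0.64, SE 0.0904, adjusted p = 3.62e-05). Mcm6 and Lig1 were each lower by 0.49 (adjusted p = 0.000151 and 0.000304). Mcm7 was higher by 0.19 (SE 0.0604, adjusted p = 0.0261), with 4656, 4813 and 4285 against 3565, 4281 and 4127. Centring gave 20.7% of all genes higher and 10.6% lower, and 19 members lower and 2 higher. Of the mitosis genes 19 were lower (median -0.45), as were Col1a2 (-1.06), Col1a1 (-0.95) and Sparc (-0.59), while Cd68 was higher (0.89, adjusted p = 6.9e-09), and their part in the result was not tested. Without NT library 2 the count fell to 14, without NT library 3 to 16 and without scrMo library 2 to 15.

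With DkkMo in log phase 7 genes were higher than in NT and 0 lower (5.36% and 4.46% of all genes), with a median of 0.11. They were Rrm2 (0.42, SE 0.109, adjusted p = 0.0174), Ccne2 (0.31, SE 0.0782, adjusted p = 0.0147), Rfc5 (0.25, SE 0.0716, adjusted p = 0.0297), Tyms, Chaf1b, Cdc6 and Mcm10. None of the 7 calls was left without NT library 1 or without DkkMo library 2, the 2 libraries that stood apart. The mean of the 39 centred genes was 0.53 ± 0.11 in NT, 0.66 ± 0.10 with DkkMo and 0.32 ± 0.04 with scrMo (SD, n = 3). The order of group means put log-phase DkkMo highest for 31 genes, log-phase NT for 4, log-phase scrMo for 2 and stress NT for 2.

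Under stress, calls between treatments went in both directions. DkkMo against scrMo gave 4 higher and 3 lower (9.97% and 10.9% of all genes) with a median of 0.00, so the members' shares were near those of all genes. Brca1 was 58.1% higher (0.37, SE 0.1, adjusted p = 0.0117), at 290.2, 384 and 395 against 257, 206 and 213, and E2f1 (0.22), Prim1 (0.19) and Gins2 (0.24) were higher too. Mcm7 was lower by 0.47 (SE 0.0604, adjusted p = 1.84e-05), at 1591, 1683 and 1566 against 2333, 2435 and 2264, with no overlap. Brca2 (-0.29, adjusted p = 0.0015) and Ccne1 (-0.24, adjusted p = 0.00582) were also lower. Without stress scrMo library 2 the count was 4. Centring gave 13.9% of all genes higher and 8.05% lower, with 7 members higher and 3 lower. Of the mitosis genes 3 were higher and 0 lower.

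Against NT under stress, scrMo gave 2 higher and 11 lower (22.1% and 24.7% of all genes) and DkkMo 4 higher and 10 lower (19.0% and 22.7%). The members' shares of lower calls were thus near those of all genes, and their shares of higher calls were smaller. Brca2 was higher with both, by 94.9% with scrMo (0.60, SE 0.0584, adjusted p = 1.53e-07) and by 0.32 with DkkMo (adjusted p = 0.00028), at 526, 488 and 618 with scrMo, 395, 388 and 421 with DkkMo and 300.4, 262 and 274 in NT. The 3 groups did not overlap. Brca1 was 87.3% higher with DkkMo (0.50, SE 0.1, adjusted p = 0.000623), where NT had 183, 204 and 183. Gins2 was lower with scrMo (-0.63, adjusted p = 6.2e-08) and with DkkMo (-0.39, adjusted p = 2.73e-05), and Gse1, which overlaps it, was also lower by 0.52 and 0.25. Pold1 was lower with DkkMo (-0.46, adjusted p = 1.38e-05), at 1008, 926 and 1051 against 1461, 1426 and 1501, and Mcm7 by 0.49 (adjusted p = 4.33e-06). Rfc3, of the clamp loader, was lower with scrMo (-0.33, adjusted p = 0.000119). Centring gave 17.0% of all genes higher and 30.3% lower for scrMo against NT, with 1 member higher and 16 lower.

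Whether a treatment difference itself changed with growth condition was tested as an interaction, the stress difference minus the log-phase difference. For DkkMo against scrMo it was negative and called for 24 genes and positive for 0 (13.2% and 8.93% of all genes), with a median of -0.33. Uhrf1 (-0.76, SE 0.128, adjusted p = 0.000338), Rrm2 (-0.76, SE 0.154, adjusted p = 0.00158) and Lig1 (-0.68, SE 0.12, adjusted p = 0.000534) had the largest values. Centring gave 21.2% of all genes positive and 8.16% negative, with 1 member positive and 19 negative, and quantile normalisation 11.3% and 11.1%, with 1 and 23. For scrMo against NT 16 genes were positive and 4 negative (22.8% and 23.2% of all genes). Brca2 (0.82, SE 0.0825, adjusted p = 2.93e-07), Rrm1 (0.55) and Mcm5 (0.54) led the positive genes and Gins2 (-0.72, adjusted p = 1.24e-06) the negative ones. Centring gave 15.6% and 33.1% of all genes, with 8 members positive and 8 negative, so the balance of the members depended on the scaling. For DkkMo against NT 2 were positive and 13 negative (12.3% and 16.8% of all genes), with Mcm7 (-0.56, adjusted p = 0.000125) and Pold1 (-0.53, adjusted p = 0.000251) the most negative. Without stress NT library 2 this count fell from 15 to 9, and without log NT library 1 to 10.

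**Figure D5:**
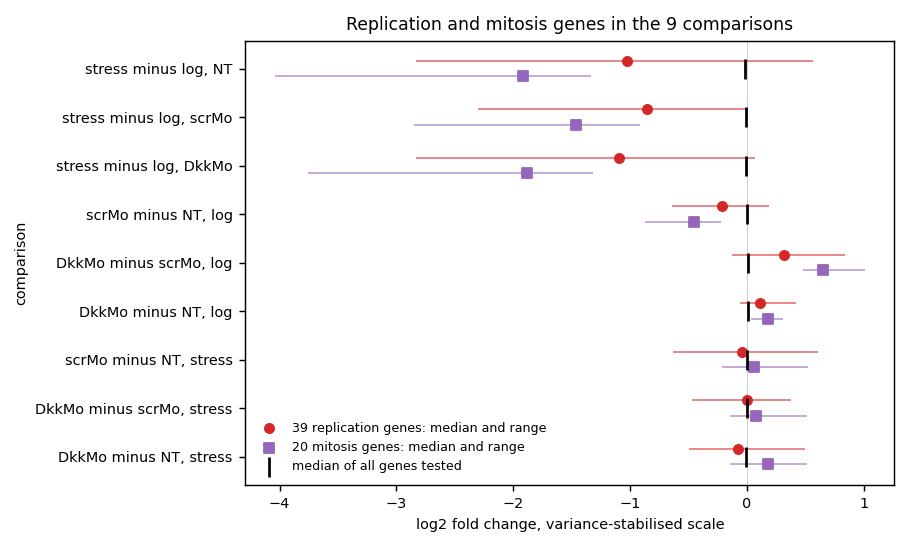
Median and range of the log2 differences of the members and of the mitosis genes in each pairwise comparison, on the stabilised scale. Ticks mark the median of all genes tested. The mitosis genes and the members move in the same direction in the stress comparisons and in log phase, with the mitosis medians farther from 0.

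Across the 39 genes, those with the larger drop in NT under stress were those with the larger excess of DkkMo over scrMo in log phase (Pearson's r = -0.66, Spearman's rho = -0.73). Here both differences were taken on the log2 count scale with a pseudocount of 1, not on the stabilised scale. The comparisons share no library, but genes are not independent replicates and the values share each gene's depth, so this is a description across genes. Over the 20 mitosis genes r was -0.35 and rho -0.33.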

How the data were processed

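Poly(A) RNA of 18 culture libraries was sequenced. The authors deposited DESeq2 variance-stabilised log2 values per gene (GRCm38), and the submitters' processing notes name HISAT2 2.1.0, SAMtools 1.9, StringTie and featureCounts of Subread 2.0.0. The methods give n = 3 a group. The strand setting, and whether each library came from its own flask, are not given in the sources used here. The transformation was reversed from the value of a gene without reads (7.20), and all recovered counts were whole reads within a tolerance of 0.05. Of 16576 genes listed, 14 with a range above 6 within a group were set aside, and no filter on low values was used. Differences were fitted with limma 3.58.1 (R 4.3.3) on the deposited log2 values, with 1 mean per group over all 18 libraries, a trend in the prior variance and Benjamini-Hochberg adjustment over 16562 genes. The fit was tested on simulated data. A 1.5-fold threshold was applied to the stabilised log2 difference and, chosen after seeing the data, to the ratio of mean normalised counts. Other alternatives covered scaling, thresholds, voom, array weights, a log2 count scale with a pseudocount of 1 and leaving out each library. Values per library are given for the gene of each role that changed most, and statistics for the 3 largest changes in each direction. Other genes named in the text were added with their values in view. The members and lists were chosen with earlier results of these data known. Gene positions follow the GENCODE annotation of GRCm38. The tumour table of the series was not used here, since it holds no culture library, and human DKK1, which the cassette encodes, was not analysed here.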

Additional observations from a re-analysis of the deposited data

Results flagged for a closer look

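Differences between treatments that themselves differed between log phase and stress, by limma's interaction term, were found in each of the 3 treatment comparisons. Values are the stress difference minus the log-phase difference on the stabilised log2 scale, so a negative value is a difference that was lower under stress.

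For DkkMo against scrMo the term was called for 24 genes, all negative, where 13.2% of all genes were negative and 8.93% positive. The values of the leading genes were -0.76 for Uhrf1, -0.76 for Rrm2 and -0.68 for Lig1, and the smallest of those named were -0.33 for Slbp, which binds histone mRNA, -0.31 for Gins1 and -0.30 for Mcm2. In all 6 genes the log-phase difference was above 0 and the stress difference near or below 0.

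For scrMo against NT 20 genes were called, 16 positive and 4 negative (22.8% and 23.2% of all genes). Both directions together, the members' share was near that of all genes. Brca2 (0.82), Rrm1 (0.55, SE 0.137, adjusted p = 0.0027) and Mcm5 (0.54, SE 0.122, adjusted p = 0.00143) were positive. Gins2 (-0.72), Cdt1 (-0.33, SE 0.0991, adjusted p = 0.0113) and Ung (-0.28, SE 0.0915, adjusted p = 0.0168) were negative. With the strand setting not given, it is not known whether reads of Gins2 were kept apart from those of Gse1 on the opposite strand.

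For DkkMo against NT 15 genes were called, 2 positive and 13 negative (12.3% and 16.8% of all genes). Values were -0.56 for Mcm7, -0.53 for Pold1, -0.50 for Gins2 (SE 0.0809, adjusted p = 0.000216) and -0.26 for Ccne1. The positive values were 0.24 for Brca2 (SE 0.0825, adjusted p = 0.0382) and 0.39 for Brca1 (SE 0.141, adjusted p = 0.0454). The comparisons with NT share the NT libraries, log-phase NT library 1 among them.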

How the results depend on the processing

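Of 266 calls on members, followed over 4409 values under the alternatives, 4067 kept call and direction, 342 lost the call and 0 turned direction. Of 205 medians, 27 moved by over the replicate spread of 0.0634. The causes were not tested except where stated.

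An adjusted p below 0.01 left 0 genes for DkkMo against NT in log phase, 4 for DkkMo against scrMo under stress, 14 and 8 for scrMo against NT in log phase and stress, 6 for the DkkMo-NT interaction and 10 for the scrMo-NT interaction. A 1.5-fold threshold on the stabilised scale left 0 for DkkMo against NT in either condition, 5 and 0 for DkkMo against scrMo in log phase and stress, 1 and 2 for scrMo against NT, and 0, 6 and 2 for the interactions of DkkMo-NT, DkkMo-scrMo and scrMo-NT. By the ratio of normalised counts, a threshold chosen after seeing the data, it left 0 and 2 for DkkMo against NT in log phase and stress, 12 and 1 for DkkMo against scrMo and 1 and 3 for scrMo against NT. Fitting only the groups compared, with fewer libraries for the spread, gave 0 and 22 for DkkMo against NT in log phase and stress. It gave 20 and 12 for DkkMo against scrMo and 16 and 20 for scrMo against NT. Of all 16562 genes, this fit called 447 higher and 340 lower for DkkMo against NT in log phase, and 4058 and 4713 under stress. For DkkMo against scrMo it called 814 and 295, and 2712 and 2936. For scrMo against NT it called 1128 and 1702, and 4564 and 5055. Under stress the members' shares were thus near those of all genes. Array weights gave 4 for DkkMo against NT in log phase, and 15 and 22 for DkkMo against scrMo and scrMo against NT under stress. Of all genes they called 1014 higher and 759 lower, 2878 and 3145, and 4895 and 5326. The members' shares were near these too. The log2 count scale gave 4 for DkkMo against NT in log phase, and voom 13 for the scrMo-NT interaction. Of all genes, the former called 819 higher and 674 lower, and the latter 3729 positive and 3832 negative. Genes above the median mean include 23 members, which by construction lowers the counts, to 22 in each of the 3 stress comparisons, 19 for DkkMo against scrMo, 16 for scrMo against NT and 3 for DkkMo against NT in log phase, and 15 and 12 for the DkkMo-scrMo and scrMo-NT interactions.

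Leaving out each library gave 37 to 37 (NT), 34 to 36 (scrMo) and 36 to 37 (DkkMo) for stress against log phase, 29 to 32 and 4 to 7 for DkkMo against scrMo in log phase and stress, 14 to 24 and 9 to 12 for scrMo against NT, 0 to 7 and 10 to 14 for DkkMo against NT, and 21 to 26, 15 to 21 and 9 to 17 for the interactions of DkkMo-scrMo, scrMo-NT and DkkMo-NT.

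Replicate numbers paired the libraries unevenly. For DkkMo and scrMo in log phase, deviations of same-numbered libraries correlated at 0.72, -0.04 and 0.72, against a mean of -0.21 for other pairs. Under stress they correlated at -0.11 to 0.004, against a mean of 0.02. For DkkMo between stress and log phase the values were 0.52, 0.11 and 0.05, and for scrMo 0.07, 0.02 and -0.07. Whether some libraries shared a batch was not tested. A replicate block gave 4 genes for DkkMo against NT in log phase, and 31 and 7 for DkkMo against scrMo in log phase and stress. No paired analysis was possible for stress NT because 2 of its libraries carry the same number. Genes with few reads, such as Exo1 under stress, are limited by depth.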
